A study of Drosophila melanogaster with 3 samples.

Results

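The Polycomb group genes described here are 10 genes of Drosophila melanogaster: ph-p, ph-d, Pc, Psc, Su(z)2, Sce, E(z), esc, Sfmbt and pho. They were taken by symbol from the Ensembl release 115 annotation, and all 10 were found among its 13968 protein-coding genes. For each gene every listed peak of the zinc finger protein CG2712 was collected whose summit lay within 500 bp of an annotated start, in the gene body, or within 5 kb of the gene's ends.

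Polycomb group proteins keep developmental genes such as the Hox genes silent once that state has been set in the early embryo. They work in complexes. Polycomb repressive complex 2 (PRC2), with the enzyme E(z) and its partner esc, methylates histone H3, and PRC1, with Pc, the Polyhomeotic proteins ph-p and ph-d, the related proteins Psc and Su(z)2, and the ubiquitin ligase Sce, binds that mark and compacts chromatin. The Pho repressive complex (PhoRC) joins the DNA-binding protein pho to Sfmbt and brings the others to Polycomb response elements. The results below concern where CG2712 was found at the genes that encode these proteins, and not at the targets of the complexes.

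The study has 1 group of 3 biological replicates of chromatin immunoprecipitation with sequencing (ChIP-seq). Each used whole embryos of both sexes, collected from 0 to 16 hours, of a transgenic fly line that stably expresses CG2712 with green fluorescent protein (GFP) at its C terminus. An antibody against GFP was used, and no second genotype, treatment or age was analysed here, so no test between groups exists and no p-value is given. The sources used here do not give the promoter that drives the tagged gene. The collection mixes tissues and ages, so a weak peak in every cell and a strong peak in a few cells cannot be told apart. They also give no read totals, so depth is unknown.

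Peaks came as a list of 30000 for each replicate, a list of 30000 called on the replicates together, and the 9789 peaks kept by the irreproducible discovery rate (IDR), which were the 9789 strongest of the pooled list. Signal is the authors' own value for each peak, and rank 1 is the strongest peak of a list. Since the scaling of the signal was not stated, levels are given per list, as log2 of a peak's signal over the median signal of the 9789 strongest peaks of the same list. A level of 0 is therefore a typical strong peak of that replicate.

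CG2712 had an IDR peak at the promoter, within 500 bp of a start, of 7 of the 10 genes: ph-p, ph-d, Pc, Psc, Su(z)2, E(z) and Sfmbt. Over all protein-coding genes 35.6% had one. Sce, esc and pho had none, although each had a promoter peak in at least 1 replicate list. In the 9789 strongest peaks of replicates 1, 2 and 3, promoter peaks were found at 8, 8 and 7 of the 10 genes, a mean share of 76.7% ± 5.77 (SD, n = 3), beside 35.4%, 34.4% and 36.9% of all coding genes. Replicate 1 added esc and pho and lacked Su(z)2, replicate 2 added pho, and replicate 3 held the same 7 genes as the IDR list. Among the 4894 IDR peaks with the highest signal, 5 of the 10 had one, ph-p, ph-d, Pc, E(z) and Sfmbt, where 20.6% of all coding genes had a promoter peak. The whole pooled list held a promoter peak at 9 genes, all but esc, and there 49.2% of all coding genes had one.

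**Figure D1:**
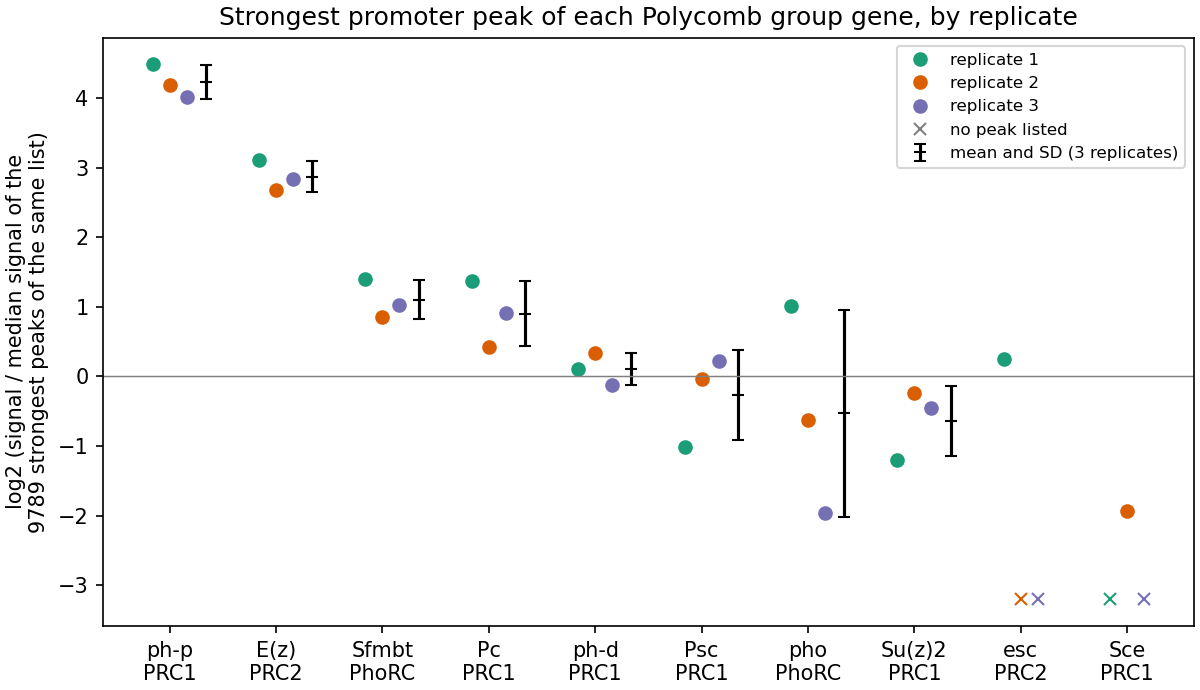
Level of the strongest promoter peak of each Polycomb group gene in each of 3 replicates, as log2 of its signal over the median signal of the 9789 strongest peaks of the same list, with the mean and SD beside it and crosses where no peak was listed. The 3 replicates of ph-p lie between 4.01 and 4.48 and those of E(z) between 2.68 and 3.11, above those of every other gene shown, and pho spreads from -1.96 to 1.01.

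Within 500 bp of a start, the strongest promoter peak of the 10 genes was that of ph-p (FBgn0004861, chromosome X, 2126210 to 2138371, minus strand, build dm6), a PRC1 gene and one of a tandem pair with ph-d. Its IDR peak had signal 7735 and rank 18 of 9789. In replicates 1, 2 and 3 the signal was 2406, 3264 and 2361, and the rank 16, 16 and 20. The level was 4.48, 4.19 and 4.01, a mean of 4.23 ± 0.24 (SD, n = 3), so the gene stood among the strongest peaks of every replicate. The summit was 465 bp upstream of the second of 3 annotated starts, in an intron of the longest transcript. With a window of 250 bp that peak was left out, the ph-p level was -1.31, and E(z), at 2.87, stood first. A further summit in the same interval of 1253 bp lay in the 5′ UTR, 430 bp downstream of the most upstream start, with signal 5585 and IDR rank 41. That summit ranked 35, 34 and 52 in the replicates (level 3.73 ± 0.20, SD, n = 3).

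The bases under the ph-p summits are shown because they carry the strongest promoter peak of the group. They are RefSeq sequence of the Release 6 assembly, which is dm6, on the minus strand as the gene is read, and capitals mark unbroken stretches of at least 8 A or T. The first is chrX:2137270-2137370, within 50 bp of the summit, and the second is the 30 bases at the summit in the 5′ UTR, chrX:2137927-2137956. A stretch at the edge of the printed bases may run on past it.
ph-p, 465 bp upstream of the second start: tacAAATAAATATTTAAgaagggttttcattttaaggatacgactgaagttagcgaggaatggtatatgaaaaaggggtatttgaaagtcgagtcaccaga
ph-p, 430 bp downstream of the first start: aatcaactcaatacgtatgtcTATTATATA

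The ph-p gene also held a pair of intron peaks downstream of its starts. The summit 1280 bp downstream had signal 1642 and IDR rank 675, with ranks of 790, 600 and 742 in replicates 1, 2 and 3 and a level of 1.91 ± 0.18 (SD, n = 3). The summit 2156 bp downstream was weaker, at signal 772.7 and IDR rank 2199 (level 0.90 ± 0.10, SD, n = 3). In all 3 replicates the first exceeded the second. On the other side, 3796 bp upstream of the gene, a weak peak (signal 247.4, rank 8337) lay in an intron of D2hgdh, 520 bp from the start of that gene.

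The neighbouring ph-d (FBgn0004860, chromosome X, 2115727 to 2123286, minus strand) encodes the closely related Polyhomeotic distal protein and lies downstream of ph-p. Its promoter peaks were of middling strength. The stronger, 401 bp upstream of the inner start, had IDR signal 476.7 and rank 4112, and its strongest promoter peak in replicates 1, 2 and 3 had signal 116.2, 226.3 and 135.3 (ranks 4512, 3663 and 5426). The level was 0.11, 0.34 and -0.12, a mean of 0.11 ± 0.23 (SD, n = 3), close to a typical strong peak. The weaker lay 154 bp downstream of the outer start, in the 5′ UTR (signal 402.3, rank 5039, level -0.17 ± 0.44, SD, n = 3).

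A much stronger peak stood between the genes of the pair, just outside the 500 bp promoter window. Its summit lay 854 bp upstream of the first start of ph-d, in intergenic DNA, with IDR signal 3752 and rank 115. The replicates gave signal 1015, 1545 and 1239, ranks 108, 133 and 111 and levels 3.23, 3.11 and 3.08, a mean of 3.14 ± 0.08 (SD, n = 3). This was the smallest SD over replicates of any summit at the 10 genes. With a promoter window of 1000 bp, this peak became the promoter level of ph-d, at 3.14 in place of 0.11. The sequence around it, chrX:2124090-2124190, opens with 37 A and T in a row, a run that 0.429% of IDR peaks match or exceed. It is set beside chrX:2122143-2122243 at the inner start, on the same strand, to show this peak with the stronger promoter peak of ph-d.
ph-d, 854 bp upstream of the first start: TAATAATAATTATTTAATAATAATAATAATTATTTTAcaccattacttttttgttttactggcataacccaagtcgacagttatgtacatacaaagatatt
ph-d, 401 bp upstream of the inner start: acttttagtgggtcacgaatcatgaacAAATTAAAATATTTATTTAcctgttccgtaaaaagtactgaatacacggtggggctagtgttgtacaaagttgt

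Since ph-p and ph-d arose by duplication, the reference was searched for repeats of the DNA under their peaks. Of the 50-base stretches within 500 bp of the strongest ph-p summit, 97.4% occurred once in the assembled chromosomes, and so did 97.4% around the ph-d summit 154 bp downstream of its start. The other ph-p and ph-d summits, the 854 bp summit included, had only stretches that occurred once. So did every IDR summit of the other genes.

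**Figure D2:**
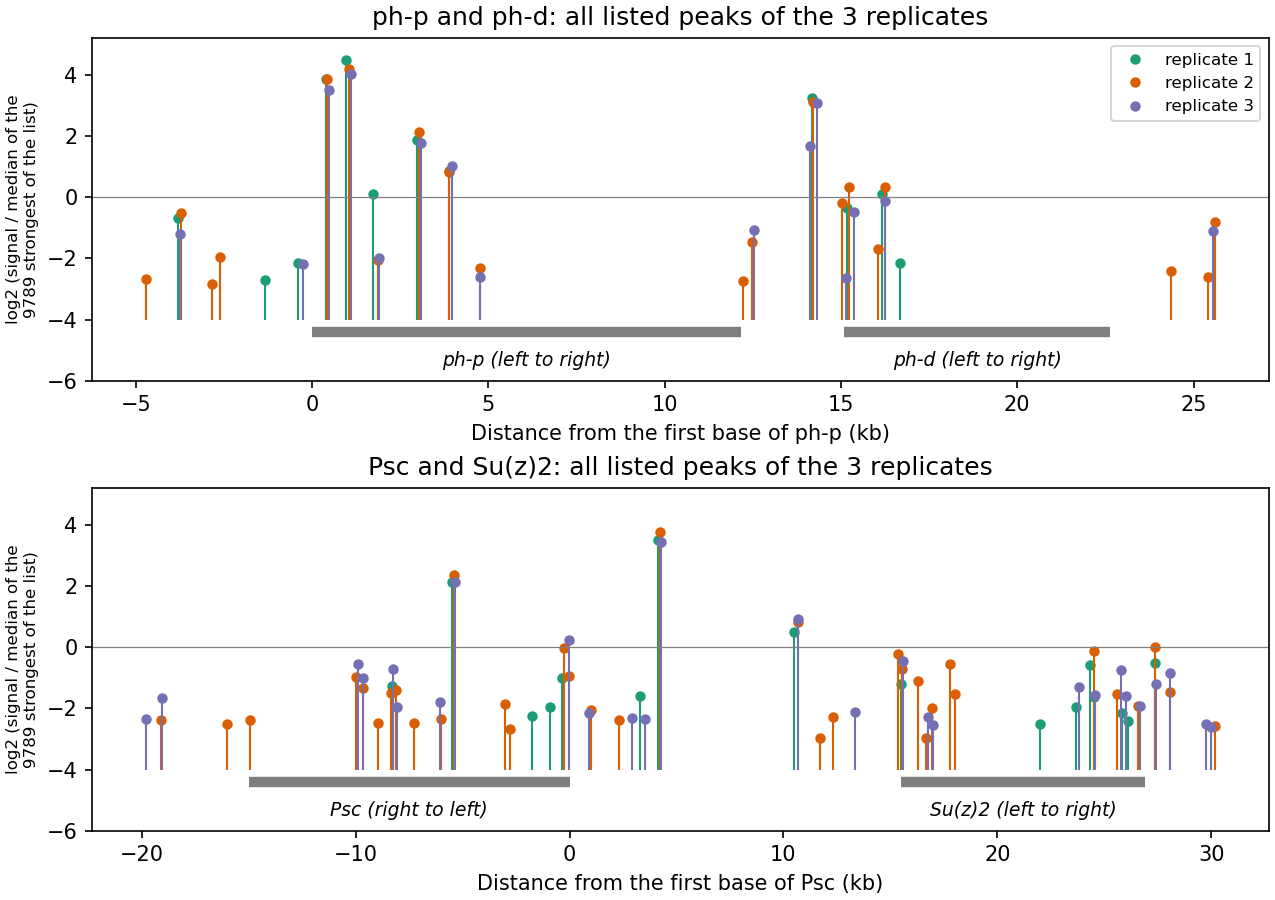
All listed peaks of the 3 replicates in and within 5 kb of ph-p and ph-d (upper panel) and of Psc and Su(z)2 (lower panel), by distance in kb from the first base of ph-p or Psc, with replicates shifted slightly sideways; the height is log2 of signal over the median of the 9789 strongest peaks of the list, and grey bars are the genes. The tallest peaks, at the ph-p starts, between ph-p and ph-d, in the Psc intron and between Psc and Su(z)2, appear in all 3 replicates.

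Pc (FBgn0003042, chromosome 3L, 21306138 to 21318020, minus strand) encodes the chromodomain protein that binds the methylated histone tail. Its promoter summit was 64 bp upstream of its only annotated start, with IDR signal 818.3 and rank 2017. The signal was 278.5, 239.4 and 276.1 in replicates 1, 2 and 3, the rank 1347, 3380 and 1977, and the level 1.37, 0.42 and 0.91 (mean 0.90 ± 0.47, SD, n = 3). Replicate 2 was the lowest. The sequence chr3L:21318034-21318134, on the minus strand, held no stretch of 8 A or T and is shown as the contrast to the A and T rich summits of ph-p and ph-d.
Pc, 64 bp upstream of the start: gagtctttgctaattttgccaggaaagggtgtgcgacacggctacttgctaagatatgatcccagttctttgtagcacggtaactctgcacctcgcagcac

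One of the strongest peaks of the IDR list also lay within 5 kb of Pc, beyond its 3′ end. It had signal 6811 and rank 24, with ranks of 52, 14 and 22 in the replicates (level 3.91 ± 0.31, SD, n = 3). Its summit was 91 bp from the start of another gene, CG11309, so the place alone does not tie it to Pc.

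Psc and Su(z)2, on chromosome arm 2R, encode related PRC1 proteins. They are read away from each other, and the starts of CG33798 and lncRNA:CR44339 lie between them. Both had weak promoter peaks. At Psc (FBgn0005624, 12965997 to 12980994, minus strand) the stronger promoter summit was 95 bp upstream of the inner start, with IDR signal 313.2 and rank 6617. The strongest Psc promoter peak had signal 53.5, 175.4 and 171.3 in replicates 1, 2 and 3 and levels of -1.01, -0.03 and 0.22 (mean -0.27 ± 0.65, SD, n = 3). These values do not all belong to the same summit. It lay 37 and 95 bp upstream of the inner start in replicates 1 and 2, and 79 bp downstream of the outer start in replicate 3. Replicate 1 stood below the others, and without it the mean was 0.10. At Su(z)2 (FBgn0265623, 12996501 to 13007911, plus strand) the summit was 1 bp upstream of the first start, with IDR signal 296.3 and rank 6999. The signal of its strongest promoter peak was 46.9, 151.3 and 106.4 and the level -1.20, -0.24 and -0.46, a mean of -0.64 ± 0.50 (SD, n = 3), again lowest in replicate 1.

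The strong peaks of this pair lay away from the starts. One had its summit 4201 bp upstream of Psc, in intergenic DNA 172 bp from the start of the long noncoding RNA gene lncRNA:CR44339, with IDR signal 5224 and rank 50. Its ranks were 71, 44 and 54 and its levels 3.49, 3.75 and 3.44 (mean 3.56 ± 0.16, SD, n = 3). The other lay in a Psc intron, 5072 bp downstream of the nearest start, with IDR signal 2022 and rank 460, ranks of 571, 432 and 472 and levels of 2.11, 2.35 and 2.13 (mean 2.20 ± 0.13, SD, n = 3). Both exceeded the Psc promoter peak in all 3 replicates, with no overlap of their ranges.

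Around Su(z)2 the remaining IDR peaks were weaker. The summit 4850 bp upstream, 2246 bp from the start of CG33798, had signal 731.3 and rank 2364 (level 0.75 ± 0.22, SD, n = 3). The intron summit 8370 bp downstream had signal 267.9 (level -1.10 ± 0.84), and one beyond the gene's end 304.0 (level -0.57 ± 0.61, SD, n = 3 for both). A further Psc intron peak (signal 213.4, rank 9459) and the second Psc promoter peak (signal 280.1, rank 7418) were not listed in replicate 1.

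Sce (FBgn0003330, chromosome 3R, 27680431 to 27682029, minus strand), the gene of the PRC1 ubiquitin ligase, had no IDR summit within 5 kb, and the nearest was 24.9 kb away. Replicate 2 listed a promoter peak 16 bp downstream of its start, with signal 46.5, rank 17548 and a deposited −log10 q of 1.99, and the pooled list one with signal 73.4, rank 21238 and −log10 q 0.717. Replicates 1 and 3 listed none there. A peak 2903, 2697 and 2758 bp downstream of the start was listed in replicates 1, 2 and 3 (ranks 9440, 13606 and 11795), and lay 165, 41 and 20 bp from the start of CG12883. The best rank near Sce was 5559, for a peak in replicate 1 alone (signal 96.2). That peak was 4704 bp downstream of the start and 197 bp from the start of Hsdl2. Upstream, replicates 1 and 2 listed a peak (ranks 10456 and 16017) 169 and 377 bp from the start of CG12880.

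Of the PRC2 genes, E(z) (FBgn0000629, chromosome 3L, 10634575 to 10638130, minus strand), which encodes the methyltransferase, had the second strongest promoter peak of the 10 genes. The IDR signal was 3132 and the rank 180. In replicates 1, 2 and 3 the signal was 929.9, 1143 and 1047, the rank 136, 274 and 157 and the level 3.11, 2.68 and 2.84, a mean of 2.87 ± 0.22 (SD, n = 3). It was the only IDR summit in or within 5 kb of the gene. The summit lay in the 5′ UTR, 83 bp downstream of the first start, and 99 bp from the start of the neighbouring gene Cnep1r2, so the peak counts for both genes. Within 50 bp of it 20.8% of bases were G or C, and a run of 27 A and T was present. The 30 bases at the summit, chr3L:10638033-10638062 on the minus strand, are shown as the strongest peak at a PRC2 gene. They do not hold the whole run of 27.
E(z), 83 bp downstream of the first start: tggttgtatagcTAATTTAAAgtgagtatt

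The other PRC2 gene, esc (FBgn0000588, chromosome 2L, 11827204 to 11829405, minus strand), encodes the partner that E(z) needs for activity and lies inside the span of Pde1c. It was the only one of the 10 with no summit at all in the pooled list. Replicate 1 listed a promoter peak 52 bp upstream of its start, with signal 128.0, rank 4015 and a level of 0.25, and replicates 2 and 3 listed none. The nearest IDR summit was 10.6 kb away.

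The PhoRC genes differed in how well their promoter peaks repeated. Sfmbt (FBgn0032475, chromosome 2L, 13169649 to 13176785, minus strand), which encodes the partner of pho that binds methylated histones, had an IDR peak of signal 886.7 and rank 1802. The signal was 285.6, 325.0 and 299.6 in replicates 1, 2 and 3, the rank 1293, 2289 and 1736 and the level 1.40, 0.86 and 1.03 (mean 1.10 ± 0.28, SD, n = 3). The summit was 190 bp upstream of Sfmbt and 175 bp from the start of CG5439. It therefore lay nearer to the other gene, and Sfmbt left the count when only the nearest start was taken. Its sequence, chr2L:13176925-13177025 on the minus strand, holds short stretches of A and T.
Sfmbt, 190 bp upstream of the first start: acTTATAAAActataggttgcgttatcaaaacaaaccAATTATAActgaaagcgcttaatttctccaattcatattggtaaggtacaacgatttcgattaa

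Both other IDR summits near Sfmbt, of signal 1355 and 597.6, lay beyond its 3′ end, 200 bp from the start of DnaJ-H and 132 bp from that of Sirt1. At pho (FBgn0002521, chromosome 4, 1172469 to 1181628, minus strand), the gene of the DNA-binding member, the nearest IDR summit was 17.8 kb away. All 3 replicate lists held a promoter peak, 284, 236 and 331 bp upstream of the start. Its deposited −log10 q was 4.23, 4.43 and only 1.28 in replicates 1, 2 and 3. Its signal was 217.2, 116.1 and 37.6, its rank 1966, 7919 and 19423 and its level 1.01, -0.62 and -1.96, a mean of -0.53 ± 1.49 (SD, n = 3). No other gene among the 8 with a promoter peak in all replicates had so large an SD. Without replicate 3 the mean was 0.19, and without replicate 1 it was -1.29. In the pooled list the peak had rank 11593, below the 9789 kept. Of the 80 coding genes on chromosome 4, a largely heterochromatic chromosome, 40.0% had a promoter peak in the IDR list.

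Ordered by mean level, the promoter peaks ran from ph-p through E(z), Sfmbt, Pc, ph-d, Psc and pho to Su(z)2. ph-p exceeded E(z) by 1.35 ± 0.17 on the log2 scale (SD of the difference over 3 replicates), and E(z) exceeded Sfmbt by 1.77 ± 0.06, in 3 of 3 replicates and with no overlap of ranges. Sfmbt and Pc differed by 0.20 ± 0.21 with overlapping ranges. Pc exceeded ph-d by 0.79 ± 0.62 in 3 of 3 replicates. Among the last 4 genes, ph-d, Psc, pho and Su(z)2, the differences between neighbours in the order, from 0.11 to 0.38, were smaller than their SD and the ranges overlapped. The ends of that stretch did not overlap, as the lowest ph-d level was -0.12 and the highest Su(z)2 level -0.24. PRC1 genes stood both first and last in the order. The order depended on the 500 bp window. Within 250 bp ph-p fell to -1.31, and within 1000 bp ph-d rose to 3.14, above E(z) at 2.87.

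**Figure D3:**
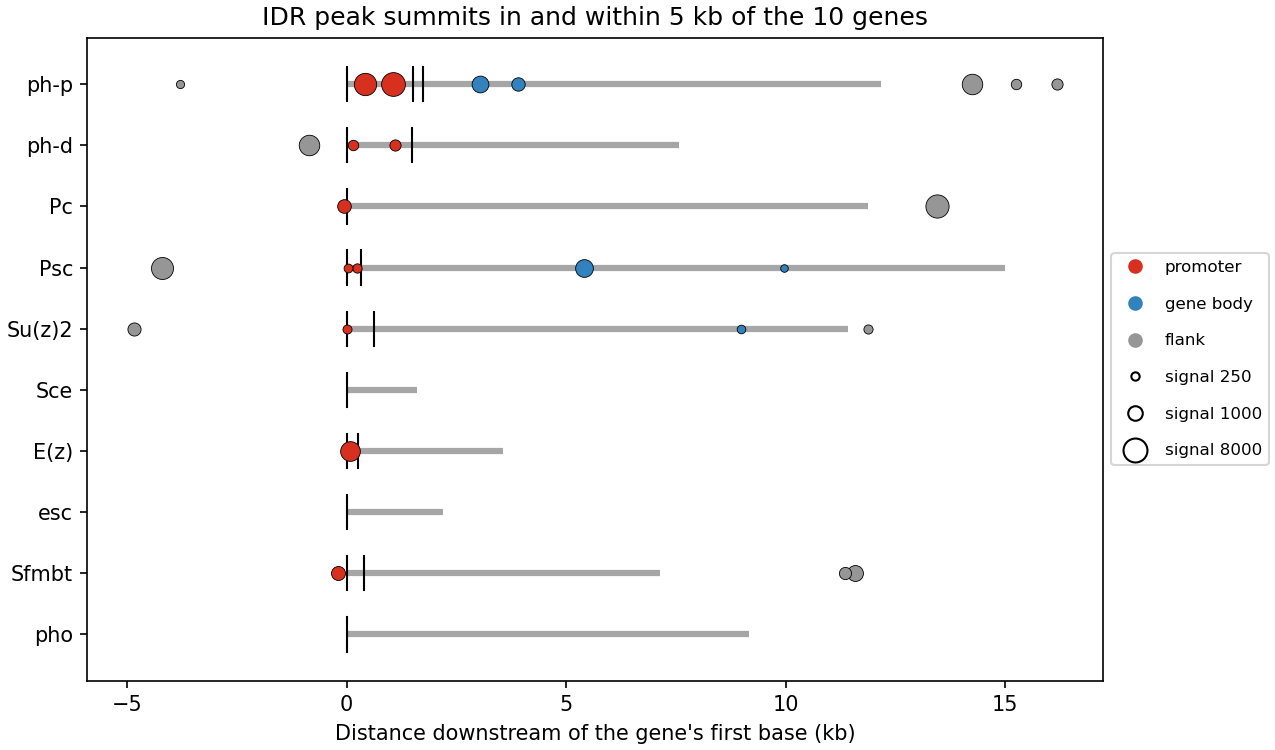
IDR peak summits in and within 5 kb of each of the 10 genes, by distance in kb downstream of the gene's first base; grey bars are genes, vertical ticks annotated starts, circle size grows with log2 of signal and colour gives the class. ph-p has 8 summits and Sce, esc and pho none, and the large circles of ph-d and Psc lie upstream of the genes.

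Counting every class, the IDR list held 23 distinct summits in or within 5 kb of the 10 genes. Because ph-p and ph-d share 3 of their summits, they made 26 pairs of gene and summit, of which 10 were at promoters, 5 in gene bodies and 11 in the flanks. By position, 11 of the 23 lay in introns, 7 in intergenic DNA and 5 in 5′ UTRs, and none in a coding exon. ph-p had 8 summits, a number that 1.65% of coding genes reach, Psc 5 (7.31%), Su(z)2 4 (14%) and ph-d and Sfmbt 3 each (26.2%). The 10 genes are long, with a median of 8.36 kb against 2.16 kb over all coding genes, and the part of length in these numbers was not tested.

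Gene bodies outside the promoter held an IDR summit at 3 of 10 genes, ph-p, Psc and Su(z)2, against 11.2% of all coding genes. In the 9789 strongest peaks of each of the 3 replicates the count was 3 as well, where all coding genes were at 11.7%, 11.4% and 11.0%. A flank summit was present at 6 of 10, beside 54.2% of all coding genes, and any summit at 7 of 10, beside 64.4%. Those last shares are near the background.

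The peaks at these genes repeated about as well as those elsewhere. Of the 23 summits, 21 (91.3%) had a summit within 250 bp in all 3 replicate lists, and 17 (73.9%) among the 9789 strongest of all 3. Over the whole IDR list the shares were 92.4% and 67.0%. The median SD of the level over replicates was 0.28 at the 23 summits, from 0.08 to 1.08, and 0.29 over all IDR summits. Neighbouring IDR summits could be matched to the same replicate peak. The SD of 1.08 was at the Sfmbt summit of signal 597.6. It shared its replicate 1 peak (rank 618) with the Sfmbt summit of signal 1355. Both Psc promoter summits likewise shared a replicate 3 peak (rank 3909).

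**Figure D4:**
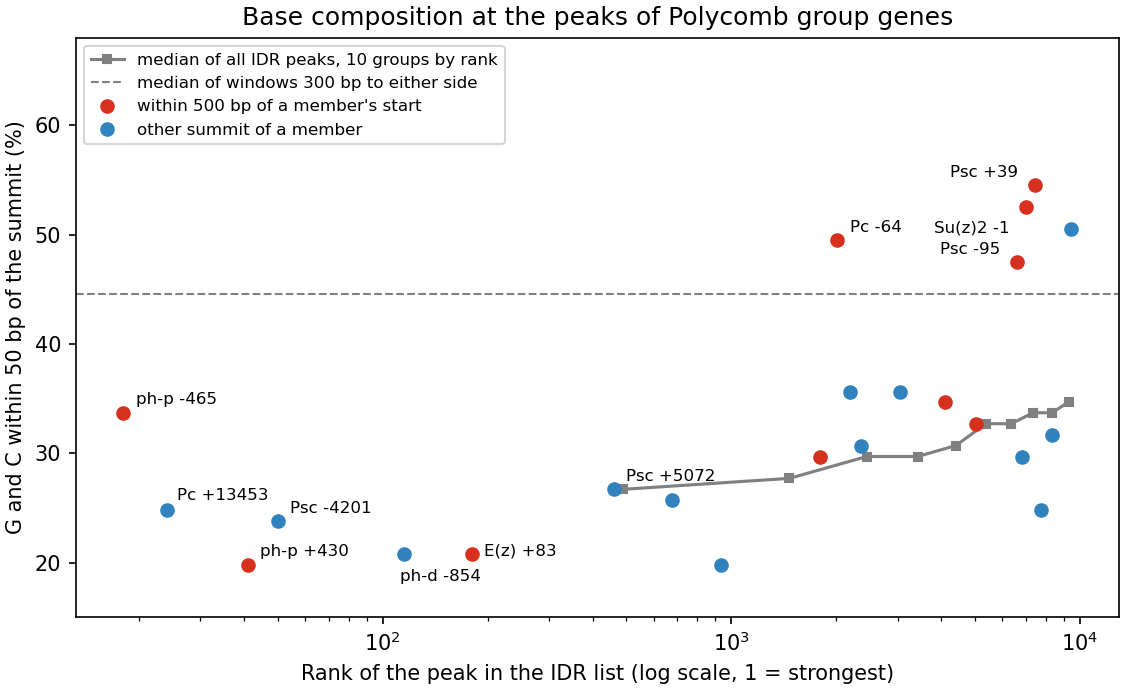
Share of G and C within 50 bp of each of the 23 IDR summits at the 10 genes, against rank in the IDR list on a log scale, with the median of all IDR peaks in 10 groups by rank (squares) and of windows 300 bp to either side (dashed line). Labels give the gene and the distance in bp from its nearest start; the promoter summits of Psc, Su(z)2 and Pc lie above the dashed line at 44.6%, and E(z) and the ph-p summit at +430 near the bottom.

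The summits were rich in A and T, as IDR summits were in general. The median share of G and C within 50 bp was 30.7% both at the 23 summits (19.8 to 54.5%) and over all 9789 IDR peaks, against 44.6% in windows 300 bp to either side. A run of at least 8 A or T was found at 19 of the 23 (82.6%), at 77.2% of all IDR summits and in 47.2% of the side windows. Among the promoter summits the share varied widely. E(z), at 20.8%, and the ph-p summit 430 bp downstream of its start, at 19.8%, were low in G and C, and the strongest ph-p summit stood at 33.7%. The weak promoter peaks of Psc (47.5 and 54.5%) and Su(z)2 (52.5%) were above the side windows, as was Pc (49.5%). Over all IDR promoter peaks the median was 26.7% for the 554 among the 979 strongest peaks of the list and 40.6% for the 391 among the 979 weakest. The longest runs lay at peaks outside the promoters, with 37 A and T at the ph-d peak 854 bp upstream, 35 at the Psc peak 4201 bp upstream, a length that 0.633% of IDR peaks reach, and 33 at the Su(z)2 peak 4850 bp upstream (0.827%).

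Letters bound by known promoter and Polycomb factors were found at few of these summits, and at a minority of all IDR summits. Both strands were searched within 50 bp for GAGAG (GAGA factor), GCCAT (the core of pho sites), TATCGATA (the DNA replication-related element, DRE), CGATA (BEAF-32, and contained in TATCGATA), GGTCACACT (M1BP) and CACGTG (E-box). GAGAG was found at 3 of the 23, both Psc promoter summits and the one 4850 bp upstream of Su(z)2, and at 8.88% of all IDR peaks. The last of these also had the only GCCAT, which 13.0% of IDR peaks had. CGATA was found at 1, the ph-p summit 430 bp downstream of its start, against 16.8%. TATCGATA (2.57%), GGTCACACT (1.23%) and CACGTG (0.684%) were found at none. With shares so low, their absence from 23 summits is not read as a difference. In the windows 300 bp to either side of all IDR summits, GAGAG was found in 14.6%, GCCAT in 18.3%, CGATA in 11.6% and TATCGATA in 0.444%. GGTCACACT was in 0.291% of those windows and CACGTG in 1.34%. Within 100 bp GAGAG was found at 6 of the 23 (26.1%, against 20.4% of all IDR peaks), GCCAT at 3 (13.0% against 24.3%), CGATA at 5 (21.7% against 29.4%) and TATCGATA at 1, Sfmbt (4.35% against 4.7%).

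**Figure D5:**
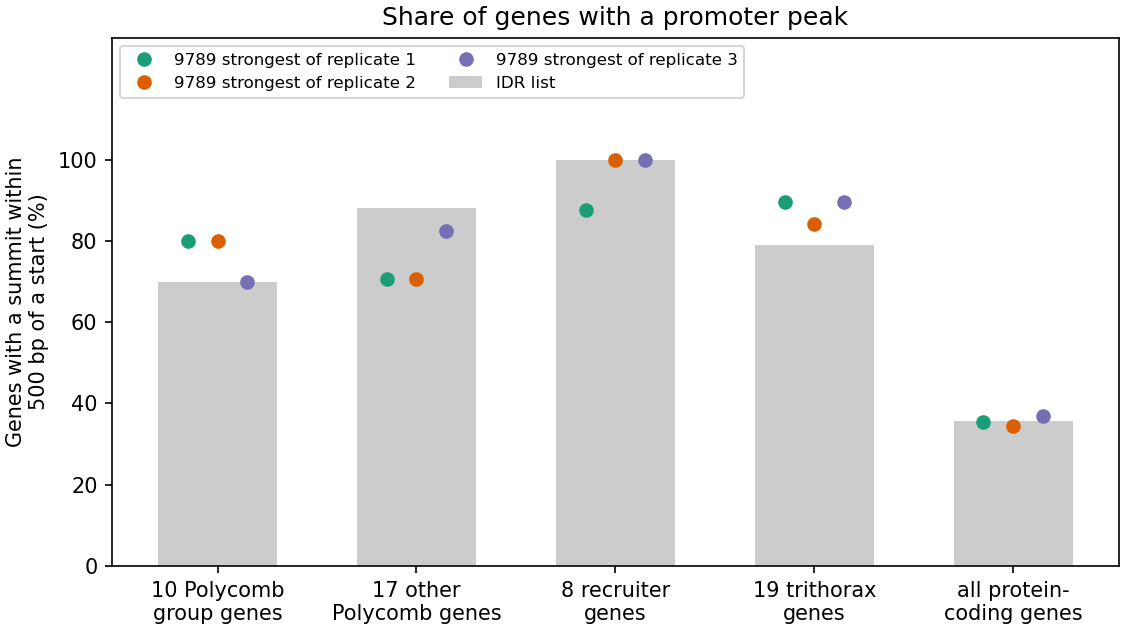
Share of genes with a summit within 500 bp of a start, in percent, for the 10 Polycomb group genes, 17 other Polycomb genes, 8 recruiter genes, 19 trithorax genes and all protein-coding genes. Bars give the IDR list and points the 9789 strongest peaks of each replicate; every list lies above the 35.6% of all coding genes.

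Promoter peaks were also frequent at other genes of the Polycomb and trithorax systems. Among 17 further Polycomb genes, such as subunits and partners of the same complexes, 15 had an IDR promoter peak (88.2%): Scm, Kdm2, RYBP, l(3)73Ah, Su(z)12, Caf1-55, Pcl, Jarid2, jing, phol, Asx, sxc, E(Pc), mxc and crm. The strongest were at Su(z)12, a core PRC2 subunit (signal 765.9, rank 2229), l(3)73Ah (568.1, rank 3283), mxc (535.8, rank 3553) and Jarid2 (502.2, rank 3843). escl, the paralog of esc, and caly, which encodes the deubiquitinase calypso, had none in the IDR list. escl had a weaker promoter peak in all 3 replicates (ranks 10608, 18066 and 21611), and caly had none in any list. All 8 recruiter genes, whose products are linked to Polycomb response elements, had one. They were Trl, which encodes the GAGA factor (851.8, rank 1913), grh (762.8, rank 2249), lolal (635.6, rank 2817), cg (590.4, rank 3111), psq, z, Spps and Dsp1.

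Of 19 trithorax group genes, whose products counter Polycomb silencing, 15 had a promoter peak (78.9%): brm, the ATPase of the Brahma complex (signal 3813, rank 113), Bap60 (916.4, rank 1732), mor (869.0, rank 1843), skd (707.1, rank 2474), trx, ash1, trr, Utx, osa, Snr1, Bap55, Bap111, Bap170, fs(1)h and kis. ash2, e(y)3, polybromo and kto had none in the IDR list. Of these, e(y)3 had a promoter peak in all 3 replicates (ranks 9647, 9219 and 8887), polybromo in replicates 2 and 3 (ranks 7148 and 7001) and ash2 in replicate 1 (rank 5500), and kto had none in any list. In the 9789 strongest peaks of the replicates the mean shares were 74.5% ± 6.79 for the other Polycomb genes, 95.8% ± 7.22 for the recruiters and 87.7% ± 3.04 for the trithorax genes (SD, n = 3), and the 76.7% ± 5.77 of the 10 genes lay within that range.

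Where a promoter peak was present, the median signal was 818.3 (rank 2017) over the 7 Polycomb group genes and 474.2 (rank 4137) over the 4973 coding genes. It was 422.5 for the other Polycomb genes, 464.9 for the recruiters and 488.5 for the trithorax genes. The 7 genes had the highest median of these sets, and ranged from rank 18 to rank 6999.

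The genes with promoter peaks most like those of the Polycomb group genes were found by the Euclidean distance of log2 rank over the 3 replicate lists, among 5540 coding genes. Closest to ph-p were Ugalt (distance 0.27; ranks 19, 15 and 21) and, at 0.39, Art3 and mRpS10, which share a peak (ranks 14, 13 and 18). The nearest to E(z) was Phf5a (0.47), to Sfmbt Nhe3 (0.11), to Pc Pis (0.15), to ph-d CG12384 (0.02), to Psc Sulf1 (0.11) and to Su(z)2 koi (0.11).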

How the data were processed

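ChIP-seq peak lists of 3 biological replicates, 1 pooled list and 1 IDR list were used, on build dm6 per the labels. Per the text deposited with the lists, each replicate's peaks were called against 1 control file. The pooled list used the alignments of the 3 replicates together, and the IDR list was derived from the other lists. The sources used here name neither the caller nor its settings nor the IDR threshold. The authors deposited a signal value and a −log10 q value per peak. The −log10 q reached a ceiling in each list (4.34 in the IDR list) and fell as low as 0.0776 in replicate 1, so peaks were ranked by signal. Each such value is the authors'.

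Genes, starts and classes came from Ensembl release 115 without transposable elements (18277 genes, 24111 starts). Each summit took the first class that held it, of promoter, gene body and flank. An IDR summit was matched to the nearest replicate summit within 250 bp. The genes, the other lists, the searched letters and the naming rule were chosen with earlier results of these data known, and the description of A and T runs was chosen after seeing the data. Named were all 10 genes, other genes with a start within 500 bp of a summit, listed genes with a promoter peak, and those nearest in rank. The symbol of 1 listed gene was resolved by synonym. No test was run, since there is 1 group. The assignment was tried on simulated peaks. The software was pandas 2.3.3, matplotlib 3.10.9, SciPy 1.17.1 and NumPy 2.4.6, run under Python 3.11.15.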

Additional observations from a re-analysis of the deposited data

How the results depend on the processing

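The count of 7 Polycomb group genes with a promoter peak moved between 5 and 9. It was 6 within 250 bp of a start, where ph-p was lost and the strongest ph-p peak left had a level of -1.31 in place of 4.23, and 7 within 1000 bp. It was 7 from the most upstream start alone and 6 from the nearest start of any gene. It was 5 among the 4894 IDR peaks of highest signal (20.6% of all coding genes) and 9 in the whole pooled list (49.2%). In IDR peaks that overlapped a strong peak of every replicate it was 5. Taking the peaks found in both other replicates, it ran from 6 to 7 when each replicate was left out. The 16 pairs of gene and summit in gene bodies and flanks became 52 in the whole pooled list, which reaches to weak peaks. With a flank of 2 kb the pairs were 8. The pairs were 11 among the 4894 IDR peaks of highest signal, 15 with 1 peak per interval, and 11 to 14 without 1 replicate. The median of the whole list as the unit raised every level (ph-p 5.90, E(z) 4.55). Sequence counts rose with the wider window, as given above. No paired analysis was possible because there is 1 group. Depth is unknown, and a list shows where a peak was listed, not that the protein is absent elsewhere.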
